A study of Mus musculus with 13 samples.

Results

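Integrins and numbered cadherins were followed through RNA of tip samples, stalk samples and nonvascular retina of the mouse. A gene was included when its symbol, from the RefSeq accession or the description of an array probe, was that of an integrin alpha chain, an integrin beta chain from Itgb1 to Itgb8 or a cadherin named Cdh with a number, with Cdh5 left out. This gave 40 genes, 22 integrins and 18 cadherins, measured by 59 probes, of 33627 genes in all. Of these 33627 entries, 16485 had a gene symbol, and the others stood under the array's own name for a probe. Shares of all genes below are over 32096 entries tested, of which 16255 had a symbol. The symbols left 8 further genes of these families without such a probe (Cdh9, Cdh10, Cdh18, Cdh19, Itga1, Itga10, Itgad and Itgb8), and they were not counted as members. Probes that carry only a description of some of them are given at the end. Of the 40 genes, 39 were tested, and the probe for Cdh17 was not well above background on any of the 13 arrays.

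The samples were 6 of tips, 4 of stalks and 3 of nonvascular retina, each hybridised in Cy5 on its own array against a common mouse reference RNA in Cy3. The names refer to the sprouting front of the retinal vessels, where tip cells lead and stalk cells follow. For no group do the labels give a genotype, strain, age, treatment or way of collecting the cells, nor do they tie samples to animals, so the p-values measure only the spread between these samples, which may be technical. All levels below are log2 ratios of sample to reference RNA, so they compare samples for 1 gene and not genes with each other.

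Against nonvascular retina, 11 of 12 endothelial markers were higher in tips and 10 of 12 in stalks. At the same threshold, an adjusted p under 0.05 in limma, 11.1% of all genes were higher and 16.8% lower in tips. In stalks 11.2% were higher and 18.6% lower. Pericyte and smooth muscle markers were also higher (10 and 11 of 12), with 7 of 12 lower in tips than in stalks, beside 1.31% of all genes. Some glial markers were higher too, 3 and 2 of 6 for astrocytes and 4 and 3 of 6 for Mueller glia, and none was called lower. The median log2 difference was 0.80 in tips and 0.51 in stalks for astrocytes, and 1.14 and 0.98 for Mueller glia. Vim, at 2.92 in tips and 2.68 in stalks, and Pdgfra, at 3.07 and 2.49, were among the largest. Others were not called, such as Gfap (0.11 and 0.19), Aqp4 (-0.11 and -0.10) and, in tips, Glul (-0.25). Ganglion cell markers were lower (7 and 6 of 8), as were microglia and macrophage markers (8 and 6 of 12). Nonvascular replicate 3 stood apart in its glial markers, with a mean astrocyte level of 1.33 against 0.12 and 0.27 on the other arrays of that group. Array brightness, as the median red signal over background, ran from 98.1 to 292, and arrays of 1 group correlated at 0.943 or above. In such bulk samples, fewer cells of a type and less RNA per cell cannot be told apart.

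Integrins are pairs of an alpha and a beta chain that span the membrane, bind matrix proteins or receptors on other cells, and join them through talin and kindlins to the actin cytoskeleton. The alpha chain largely sets the ligand: collagens, laminins, proteins with the RGD motif such as fibronectin and vitronectin, or VCAM-1 for alpha 4. Cadherins bind the same or related cadherins on a neighbouring cell in a calcium-dependent way, and the classical ones hold catenins at their cytoplasmic tail. In the growing retinal vasculature, integrins attach sprouting vessels to fibronectin and basement membrane, whereas several cadherins of nerve cells sort neurons into layers and circuits.

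Some members differed in 1 direction from nonvascular retina in both kinds of vessel sample, and the sequences just upstream of 5 of them are shown to set the higher and lower ones side by side. They are the members called in both comparisons with nonvascular retina, under every processing alternative, that have 1 start in the RefSeq promoter table (build GRCm38.p6). Promoters on 1 chromosome, which holds Cdh2, were left out of the search. Itga4, Itga5 and Itga8 were higher in tips and stalks. Cdh8 and Cdh22 were lower. Each line holds the 250 bases before the annotated start, 5′ to 3′ on the gene's strand. Capitals mark 2 motifs searched on both strands: the ETS motif (CGGAAG or AGGAAG, whose reverse complements are CTTCCG and CTTCCT) and the GC box (GGGCGG or CCGCCC). The 2 motifs can overlap where a GC box runs into an ETS motif.
Itga4: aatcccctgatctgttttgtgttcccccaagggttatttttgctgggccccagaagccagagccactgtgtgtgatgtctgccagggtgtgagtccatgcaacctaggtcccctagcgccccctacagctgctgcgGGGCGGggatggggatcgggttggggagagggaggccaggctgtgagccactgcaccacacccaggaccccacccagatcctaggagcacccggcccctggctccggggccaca
Itga5: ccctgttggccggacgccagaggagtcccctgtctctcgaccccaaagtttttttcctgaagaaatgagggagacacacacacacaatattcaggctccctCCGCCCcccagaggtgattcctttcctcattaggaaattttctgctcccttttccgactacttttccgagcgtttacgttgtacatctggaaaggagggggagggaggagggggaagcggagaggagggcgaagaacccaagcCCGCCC
Itga8: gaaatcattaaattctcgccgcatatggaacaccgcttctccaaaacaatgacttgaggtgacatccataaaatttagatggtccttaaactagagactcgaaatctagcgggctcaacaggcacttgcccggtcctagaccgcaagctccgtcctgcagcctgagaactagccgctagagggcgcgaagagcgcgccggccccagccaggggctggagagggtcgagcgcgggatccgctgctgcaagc
Cdh8: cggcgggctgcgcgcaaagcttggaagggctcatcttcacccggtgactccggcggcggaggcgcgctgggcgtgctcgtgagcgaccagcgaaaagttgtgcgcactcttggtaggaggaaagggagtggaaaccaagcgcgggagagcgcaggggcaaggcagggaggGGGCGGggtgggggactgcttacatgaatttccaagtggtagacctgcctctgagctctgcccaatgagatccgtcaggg
Cdh22: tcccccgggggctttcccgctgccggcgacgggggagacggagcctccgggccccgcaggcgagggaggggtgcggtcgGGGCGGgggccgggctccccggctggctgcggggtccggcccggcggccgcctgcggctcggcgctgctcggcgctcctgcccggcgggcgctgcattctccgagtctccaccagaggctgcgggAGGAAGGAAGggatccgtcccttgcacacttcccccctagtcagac
The stretches are chr2:79255176-79255425 (plus strand) for Itga4, chr15:103366792-103367041 (minus) for Itga5 and chr2:12301945-12302194 (minus) for Itga8. Those of the cadherins are chr8:99416472-99416721 (minus) for Cdh8 and chr2:165234738-165234987 (minus) for Cdh22. Itga4 and Cdh8 held 1 GC box each, Itga5 held 2, and Itga8 held neither motif. Cdh22 held 1 GC box and 2 overlapping ETS motifs, 37 to 46 bases before its start. Over all 32851 promoters searched, 39.2% held an ETS motif and 32.7% a GC box in the same window. Of the 25 members with an entry among the promoters searched, 12 held an ETS motif and 11 a GC box at their first listed start. A match describes these letters and is not a binding site.

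Against nonvascular retina, the integrins that were called were all higher in the vessel samples, and most cadherins that were called were lower; 12 of 22 integrins in tips, 15 in stalks and 10 of 17 cadherins in each were not called. In tips, 10 of 22 integrins were higher than in nonvascular retina and none was lower, at an adjusted p under 0.05 in limma, where 11.1% of 32096 genes were higher and 16.8% were lower. Of 17 cadherins tested, 1 was higher and 6 were lower in tips. In stalks, 7 integrins were higher and none lower, and 2 cadherins were higher and 5 lower, beside 11.2% of all genes higher and 18.6% lower. No test compared the families. The median log2 difference of the integrins was 0.19 in tips and 0.14 in stalks, and that of the cadherins -0.08 and -0.07, where the median of all genes was -0.01 and 0.00. With each array centred on its median in place of loess, the split of all genes in tips against nonvascular retina moved from 3571 higher and 5389 lower to 2184 and 5607. Both comparisons use the 3 nonvascular arrays, so they are given side by side and not as independent support. In all, 7 members were called higher in both, namely Itga4, Itga5, Itga6, Itga8, Itgb4, Itgb5 and Cdh13, and 5 were called lower in both, namely Cdh2, Cdh7, Cdh8, Cdh20 and Cdh22.

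**Figure D1:**
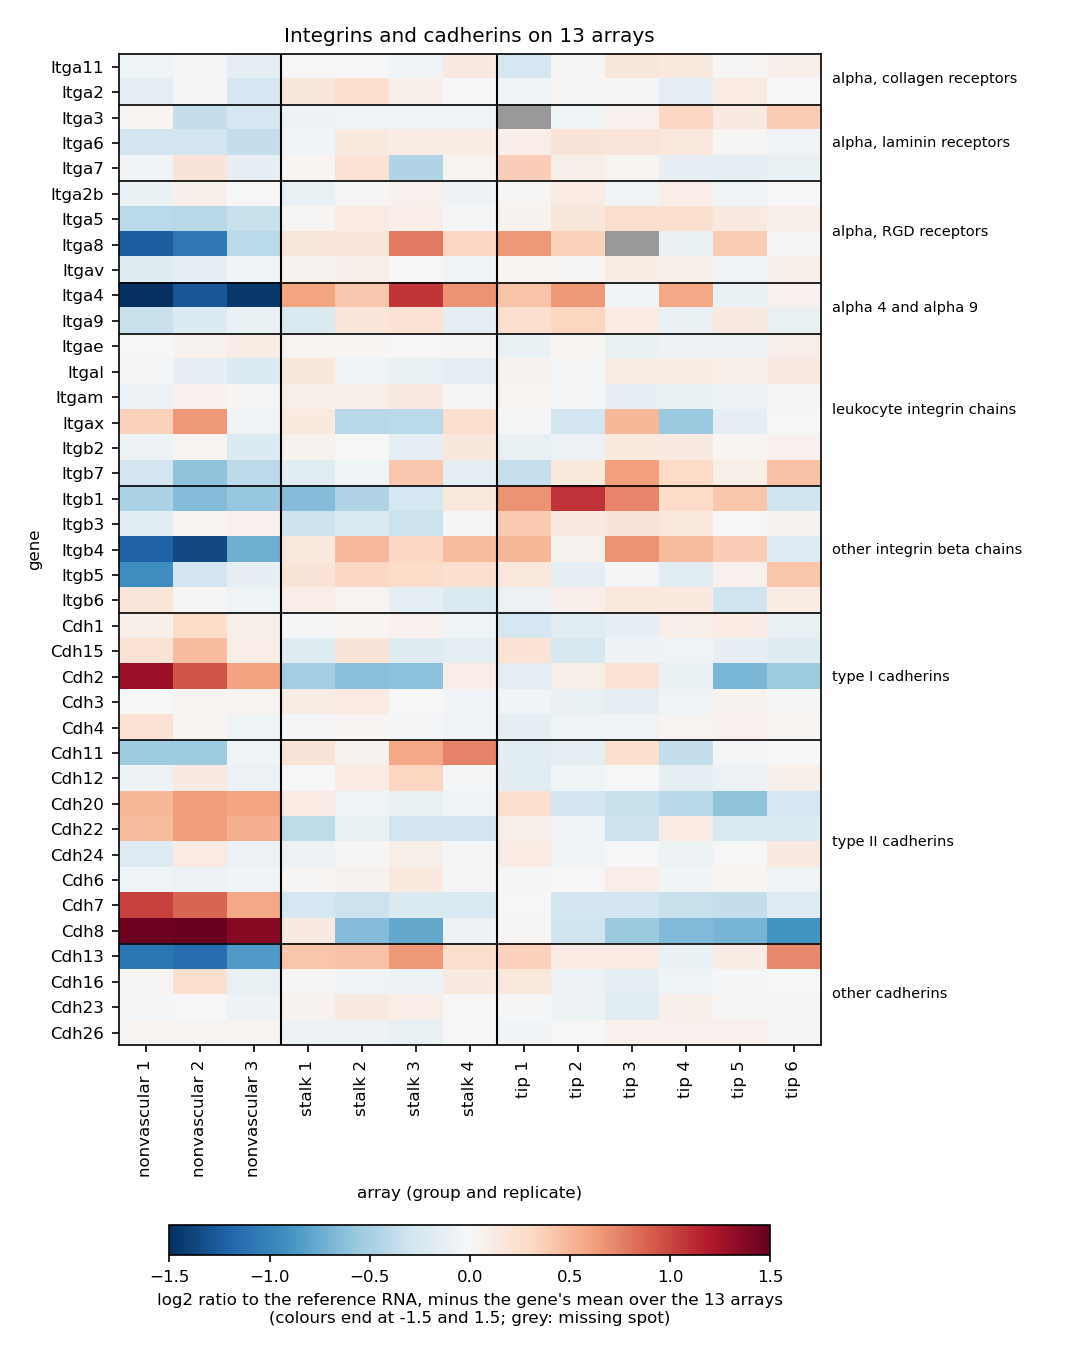
Colour shows the log2 ratio to the reference RNA of each of 39 genes (rows, by role) on each of 13 arrays (columns), minus the gene's mean over the arrays. Itga4, Itga8, Itgb4 and Cdh13 are blue on the 3 nonvascular arrays, Cdh2, Cdh7, Cdh8, Cdh20 and Cdh22 are red there, and most other rows are pale.

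Itga4 had the largest difference of any member from nonvascular retina in stalks. It encodes the alpha 4 chain, which pairs with beta 1 or beta 7 and binds VCAM-1 and fibronectin. Its log2 ratio was 2.22, 2.04, 2.71 and 2.31 on the stalk arrays, 1.53 to 2.28 on the tip arrays (median 1.88), and 0.03, 0.35 and 0.18 on the nonvascular arrays. Every tip and stalk array lay above every nonvascular array. Itga4 was 4.38-fold higher in stalks than in nonvascular retina (log2 difference 2.13, SE 0.201, adjusted p = 3.83e-06) and 3.27-fold higher in tips (1.71, SE 0.186, adjusted p = 1.4e-05). A second probe gave 1.11 in stalks and 0.97 in tips, and another, dimmer probe gave 0.01 and 0.02. With the mean of its probes Itga4 differed by 1.08 in stalks and 0.90 in tips, both called. Itga9, the related alpha 9 chain, had log2 ratios of 1.60 to 1.82 on the nonvascular arrays, 1.71 to 2.15 on the stalk arrays and 1.81 to 2.26 on the tip arrays. Its difference in tips, 0.31, missed the threshold (adjusted p = 0.0721) and passed it without either tip replicate 4 or 6 (0.0459 each).

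Of 4 alpha chains that recognise RGD proteins, 3 were higher in tips and 2 in stalks. Itga5, the alpha 5 chain of the fibronectin receptor, had log2 ratios of -1.45, -1.46 and -1.38 in nonvascular retina, -1.03, -0.92, -0.94 and -1.06 in stalks, and -0.99 to -0.78 in tips (median -0.90). The nonvascular arrays lay below all others. The difference was 0.54 in tips (SE 0.0577, adjusted p = 1.17e-05) and 0.44 in stalks (SE 0.0623, adjusted p = 0.000115). With the Feature Extraction log ratios it was 1.26 and 1.03. Itga8, whose alpha 8 chain pairs with beta 1 and binds nephronectin, had log2 ratios of 1.98, 2.0, 2.59 and 2.13 in stalks, 1.71 to 2.46 on the 5 tip arrays that measured it, and 0.58, 0.75 and 1.41 in nonvascular retina. Nonvascular replicate 3, the array with the higher glial markers, was the highest of its group and still below all tip and stalk arrays. Itga8 was 1.16 higher in tips (SE 0.218, adjusted p = 0.0016) and 1.26 higher in stalks (SE 0.228, adjusted p = 0.00112). Without nonvascular replicate 3 these values were 1.40 and 1.51, with the Feature Extraction log ratios 1.82 and 2.12, and with the mean of its probes 0.51 and 0.69. Mean astrocyte marker levels were also lowest in nonvascular retina, at 1.49 to 1.78 in tips, 1.5 to 1.81 in stalks and 0.12 to 1.33 there. Those of Mueller glia were 2.43 to 2.75, 2.64 to 2.72 and 0.90 to 2.31. Those of pericytes and smooth muscle were 0.57 to 0.82, 1.14 to 1.35 and -0.99 to -0.87. Endothelial markers were lowest there as well. The part of these cell types in the Itga8 difference was not tested. Its other probes gave 0.55 and 0.10 in tips. Itgav, the alpha V chain of the vitronectin receptors, differed by 0.16 in tips (SE 0.0527, adjusted p = 0.0356), with overlapping ranges. Leaving out nonvascular replicate 1, nonvascular replicate 2 or any 1 of tip replicates 3, 4 and 6 ended that call, at adjusted p-values from 0.0618 to 0.161. From the red channel alone the call was also lost (adjusted p = 0.168 in limma), as it was without background subtraction (0.0969). A block on replicate number (0.0893) and a fit of only the 2 groups compared (0.0577) ended the call as well. With the Feature Extraction log ratios the difference was 0.52, still called (adjusted p = 0.0384). In stalks Itgav differed by 0.15 (adjusted p = 0.0748), and by 0.19 without nonvascular replicate 3, where it was called (adjusted p = 0.045). Itga2b, the alpha IIb chain of platelets, differed by 0.03 in tips and -0.01 in stalks.

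Among the 3 laminin-binding alpha chains, Itga6 was higher in both. It encodes alpha 6, which pairs with beta 1 or beta 4. Its nonvascular values of -2.01, -1.99 and -2.08 lay below the stalk values of -1.76, -1.57, -1.61 and -1.61 and the tip values of -1.77 to -1.53 (median -1.59). The log2 difference was 0.41 in tips (SE 0.0642, adjusted p = 0.000313) and 0.39 in stalks (SE 0.0693, adjusted p = 0.000789). With median centring in place of loess neither was called (adjusted p = 0.0842 and 0.0777), and the red channel alone ended the call in tips (0.175). Itga3, the alpha 3 chain, had tip values of 0.80 to 1.25 on 5 arrays, stalk values of 0.79, 0.80, 0.83 and 0.82 and nonvascular values of 0.90, 0.51 and 0.62. It was called higher in tips (0.36, SE 0.106, adjusted p = 0.0241), although the ranges overlapped. The call was lost without nonvascular replicate 2 (adjusted p = 0.129), without nonvascular replicate 3 (0.081), without tip replicate 4 (0.0534) and with the mean of its 3 probes (0.465). With median centring the difference fell to 0.09 and was not called (adjusted p = 0.633 in limma). A block on replicate number (0.115) and a fit of only the 2 groups compared (0.0615) ended the call too. Itga7, the alpha 7 chain, differed by 0.01 in tips and -0.05 in stalks.

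The 2 collagen-binding alpha chains differed little. Itga2, the alpha 2 chain, had log2 ratios of 0.08, 0.15, -0.01 and -0.09 in stalks, -0.24 to 0.03 in tips and -0.23, -0.12 and -0.34 in nonvascular retina. All stalk arrays lay above all nonvascular arrays. The stalk difference was 0.26 (SE 0.0761, adjusted p = 0.0206), and the call was lost without nonvascular replicate 1 (adjusted p = 0.0576), nonvascular replicate 3 (0.0956), stalk replicate 1 (0.0512) or stalk replicate 2 (0.0584), and with brightness as a covariate (0.189). A fit of only the 2 groups compared ended the call as well (0.0508). With the Feature Extraction log ratios the stalk difference was 0.80 (adjusted p = 0.0188). Itga11, the alpha 11 chain, differed by 0.11 in tips and 0.09 in stalks, and neither difference was called.

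Of 5 beta chains outside the leukocyte group, 3 were higher in tips and 2 in stalks than in nonvascular retina. Itgb4, the beta 4 chain that pairs with alpha 6, had log2 ratios of 0.77, 1.1, 0.93 and 1.08 in stalks, 0.42 to 1.28 in tips (median 1.03) and -0.61, -0.74 and -0.12 in nonvascular retina. No nonvascular array reached the tip or stalk arrays. It was 2.66-fold higher in tips (log2 difference 1.41, SE 0.183, adjusted p = 5.94e-05) and 2.75-fold higher in stalks (1.46, SE 0.197, adjusted p = 8.21e-05). A second probe of similar brightness gave 1.61 in both, and another, dimmer probe gave 0.03 and -0.05. Itgb5, a partner of alpha V in a vitronectin receptor, was -0.52, 0.13 and 0.30 in nonvascular retina, 0.61, 0.73, 0.69 and 0.66 in stalks and 0.25 to 0.83 in tips. The stalk arrays all lay above the nonvascular arrays, and the tip arrays overlapped with them. Itgb5 was 0.70 higher in stalks (SE 0.173, adjusted p = 0.00717) and 0.50 higher in tips (SE 0.16, adjusted p = 0.0321). The call in tips was lost without nonvascular replicate 1, the lowest array, where the difference was 0.26 (adjusted p = 0.187), and without tip replicate 1, 5 or 6 (adjusted p = 0.0518 to 0.0544). Median centring ended both calls (adjusted p = 0.428 in tips and 0.0748 in stalks), and array brightness as a covariate that in stalks (0.127). A block on replicate number (0.137) and a fit of only the 2 groups compared (0.0694) ended the call in tips. Without nonvascular replicate 1 the stalk difference was 0.46, still called (adjusted p = 0.0271).

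Itgb1, the beta 1 chain shared by most integrin pairs, was higher in tips than in nonvascular retina. Its tip values ran from -2.31 to -0.93 (median -1.47), its stalk values were -2.67, -2.46, -2.27 and -1.85, and its nonvascular values were -2.49, -2.67 and -2.58. Every tip array lay above the nonvascular arrays, and the stalk arrays overlapped with both. The log2 difference was 1.05 in tips (SE 0.247, adjusted p = 0.00589) and 0.26 in stalks (SE 0.267, 95% confidence interval -0.31 to 0.84, adjusted p = 0.524). Median centring ended the call in tips (adjusted p = 0.0581), and the mean of both probes gave 0.69 in tips and brought a call in stalks (0.37, adjusted p = 0.0487). The second, dimmer Itgb1 probe gave another order, with 0.33 in tips (adjusted p = 0.0162) and 0.48 in stalks (adjusted p = 0.00216), in a fit over all probes. Itgb3, the partner of alpha V and alpha IIb, differed from nonvascular retina by 0.18 in tips and -0.19 in stalks, and Itgb6, the epithelial partner of alpha V, by -0.03 and -0.10. None of these 4 differences was called.

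Of 6 leukocyte integrin chains, 1 was called. Itgb7, which pairs with alpha 4 or alpha E, had tip values of -3.19 to -2.23 (median -2.63), stalk values of -3.0, -2.91, -2.44 and -2.98 and nonvascular values of -3.13, -3.45 and -3.24. The lowest tip array lay within the nonvascular range. It was 0.64 higher in tips (SE 0.184, adjusted p = 0.02) and 0.44 higher in stalks (SE 0.199, adjusted p = 0.124), and the first call was lost without nonvascular replicate 2 (adjusted p = 0.0999) and from the red channel alone (0.0906). Itgam, the alpha M chain of macrophages and microglia, was 0.04, 0.19 and 0.15 in nonvascular retina, 0.20, 0.22, 0.26 and 0.15 in stalks and 0.01 to 0.18 in tips. Itgb2, the beta 2 chain that pairs with it, was -1.08, -0.96 and -1.21 in nonvascular retina, -0.95, -1.01, -1.14 and -0.83 in stalks and -1.11 to -0.86 in tips. The groups overlapped for both genes, although with median centring Itgam was called higher in stalks (0.50, adjusted p = 0.00302). Microglia and macrophage markers were lower than in nonvascular retina in the same arrays, with mean log2 ratios of 0.56 to 0.89 in nonvascular retina, -0.18 to 0.17 in stalks and -0.26 to 0.23 in tips, and their part in the leukocyte integrin values was not tested. The remaining Itgae, Itgal and Itgax differed from nonvascular retina by -0.42 to 0.19, with adjusted p-values from 0.0588 to 0.767.

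**Figure D2:**
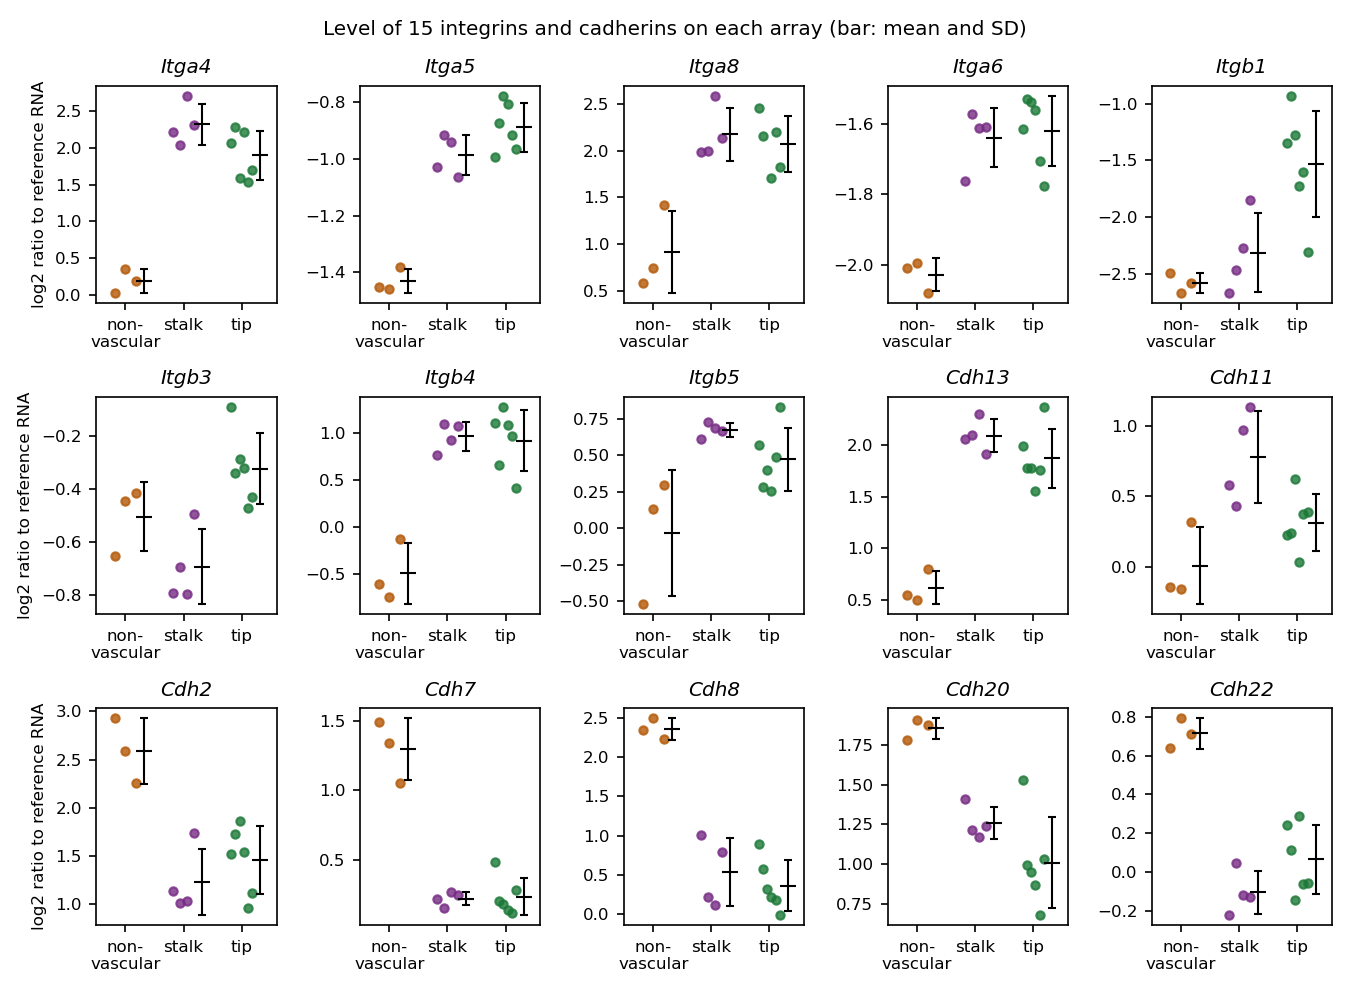
Each point is the log2 ratio to the reference RNA of 1 array, for 15 genes in nonvascular retina, stalk and tip samples; the bars give the mean and SD, and each panel has its own vertical axis. Nonvascular points stand apart below for Itga4, Itga5, Itga6, Itga8, Itgb4 and Cdh13 and above for Cdh2, Cdh7, Cdh8, Cdh20 and Cdh22.

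Among the cadherins, 5 were lower in both tips and stalks. Cdh8, a type II cadherin of neurons, had nonvascular values of 2.34, 2.5 and 2.24, stalk values of 1.01, 0.22, 0.11 and 0.80 and tip values of -0.02 to 0.89 (median 0.27). No vessel array came near the nonvascular arrays. Cdh8 was 4.00-fold lower in tips (log2 difference -2.0, SE 0.216, adjusted p = 1.29e-05) and 3.55-fold lower in stalks (-1.83, SE 0.233, adjusted p = 5.07e-05). With the Feature Extraction log ratios the differences were larger, -3.36 and -2.89. Cdh7, another type II cadherin, was 1.5, 1.34 and 1.06 in nonvascular retina, 0.22, 0.15, 0.26 and 0.24 in stalks and 0.12 to 0.48 in tips. Its ranges did not overlap with nonvascular retina, and it differed by -1.07 in tips (SE 0.0954, adjusted p = 2.51e-06) and -1.08 in stalks (SE 0.103, adjusted p = 4.24e-06), or by -1.73 and -1.70 with the Feature Extraction log ratios.

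Cdh2, N-cadherin, which joins neurons and glia and also endothelial cells to pericytes, was lower as well. It was 2.93, 2.59 and 2.25 in nonvascular retina, 1.13, 1.02, 1.03 and 1.74 in stalks and 0.96 to 1.87 in tips (median 1.53). The ranges did not overlap with nonvascular retina. Cdh2 differed by -1.14 in tips (SE 0.223, adjusted p = 0.00167) and -1.36 in stalks (SE 0.241, adjusted p = 0.000725). Cdh20, a type II cadherin, was 1.78, 1.91 and 1.87 in nonvascular retina, 1.41, 1.22, 1.17 and 1.24 in stalks and 0.68 to 1.53 in tips. It differed by -0.85 in tips (SE 0.138, adjusted p = 0.00041) and -0.60 in stalks (SE 0.149, adjusted p = 0.00817), and its second, dimmer probe by -0.05 and -0.11. The stalk call of Cdh20 was lost with the Feature Extraction log ratios (adjusted p = 0.222), the red channel alone (0.154) and brightness as a covariate (0.132). With the mean of its probes Cdh20 differed by -0.45 and -0.35, both called. Cdh22, a type II cadherin of brain, was 0.64, 0.79 and 0.71 in nonvascular retina, -0.22, 0.05, -0.12 and -0.13 in stalks and -0.14 to 0.29 in tips. It differed by -0.65 in tips (SE 0.0976, adjusted p = 0.000211) and -0.82 in stalks (SE 0.105, adjusted p = 5.44e-05), with no overlap, or by -1.14 and -1.56 with the Feature Extraction log ratios. Ganglion cell markers moved with these 5 genes: their mean log2 ratio was 2.33 to 2.61 in nonvascular retina, -0.32 to 0.63 in stalks and 0.39 to 0.75 in tips. Their part in the cadherin differences was not tested.

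Cdh13, T-cadherin, which is tied to the membrane by a lipid anchor and is known in endothelium and smooth muscle as a receptor for adiponectin, went the other way. Its stalk values were 2.06, 2.09, 2.30 and 1.91, its tip values 1.55 to 2.37 (median 1.77) and its nonvascular values 0.55, 0.50 and 0.80. The nonvascular arrays lay far below the rest. Cdh13 was 2.38-fold higher in tips (log2 difference 1.25, SE 0.15, adjusted p = 3.04e-05) and 2.78-fold higher in stalks (1.48, SE 0.162, adjusted p = 1.38e-05). Cdh11, a type II cadherin of mesenchymal cells, was 0.58, 0.44, 0.97 and 1.13 in stalks, 0.03 to 0.63 in tips and -0.14, -0.15 and 0.32 in nonvascular retina. All stalk arrays lay above the nonvascular arrays, and the tip arrays overlapped with both. Cdh11 was 0.77 higher in stalks than in nonvascular retina (SE 0.18, adjusted p = 0.00533) and 0.31 higher in tips (SE 0.166, adjusted p = 0.214). Of its 2 other probes, 1 gave 0.48 in stalks (adjusted p = 0.0397) and 1 gave -0.18 (adjusted p = 0.492). The call in stalks was lost with median centring (adjusted p = 0.0779) and with brightness as a covariate (0.067), and the mean of its probes gave 0.36, still called (0.0227).

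Cdh15, M-cadherin of muscle, had tip values of -0.34 to 0.10, stalk values of -0.29, 0.09, -0.29 and -0.24 and nonvascular values of 0.10, 0.36 and 0.00. The ranges overlapped. It differed by -0.34 in both, with adjusted p-values in limma of 0.0423 in tips and 0.0566 in stalks. The call in tips was lost without any 1 of nonvascular replicates 1 and 2, stalk replicate 4 and tip replicates 2 to 6 (adjusted p = 0.0525 to 0.225). It was also lost with the Feature Extraction log ratios (0.0828), the red channel alone (0.0601), brightness as a covariate (0.0651) and a block on replicate number (0.224). The stalk difference was called without nonvascular replicate 3 (adjusted p = 0.0404), stalk replicate 2 (0.0141) or tip replicate 1 (0.0321). Median centring (0.0138) and the red channel alone (0.0268) brought that call too. Cdh1, E-cadherin of epithelia, was well above background on 2 tip, 1 stalk and 3 nonvascular arrays, with values of -0.48 to -0.11 in tips, -0.29 to -0.17 in stalks and -0.16 to 0.05 in nonvascular retina. Its tip difference of -0.22 missed the threshold (adjusted p = 0.0686) and passed it without tip replicate 4 (0.0397) or tip replicate 5 (0.0261). Under the Feature Extraction log ratios the difference was -1.19 (adjusted p = 0.0186). Cdh4, R-cadherin of retina, was 0.33, 0.14 and 0.05 in nonvascular retina, 0.06 to 0.14 in stalks and -0.04 to 0.18 in tips, and its groups overlapped. Cdh6, a type II cadherin measured well above background on 9 arrays, was -0.02 to 0.15 in tips, 0.02 to 0.19 in stalks and -0.04 to 0.00 in nonvascular retina. The other 6 cadherins tested (Cdh3, Cdh12, Cdh16, Cdh23, Cdh24 and Cdh26) differed from nonvascular retina by -0.10 to 0.12, and none was called.

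**Figure D3:**
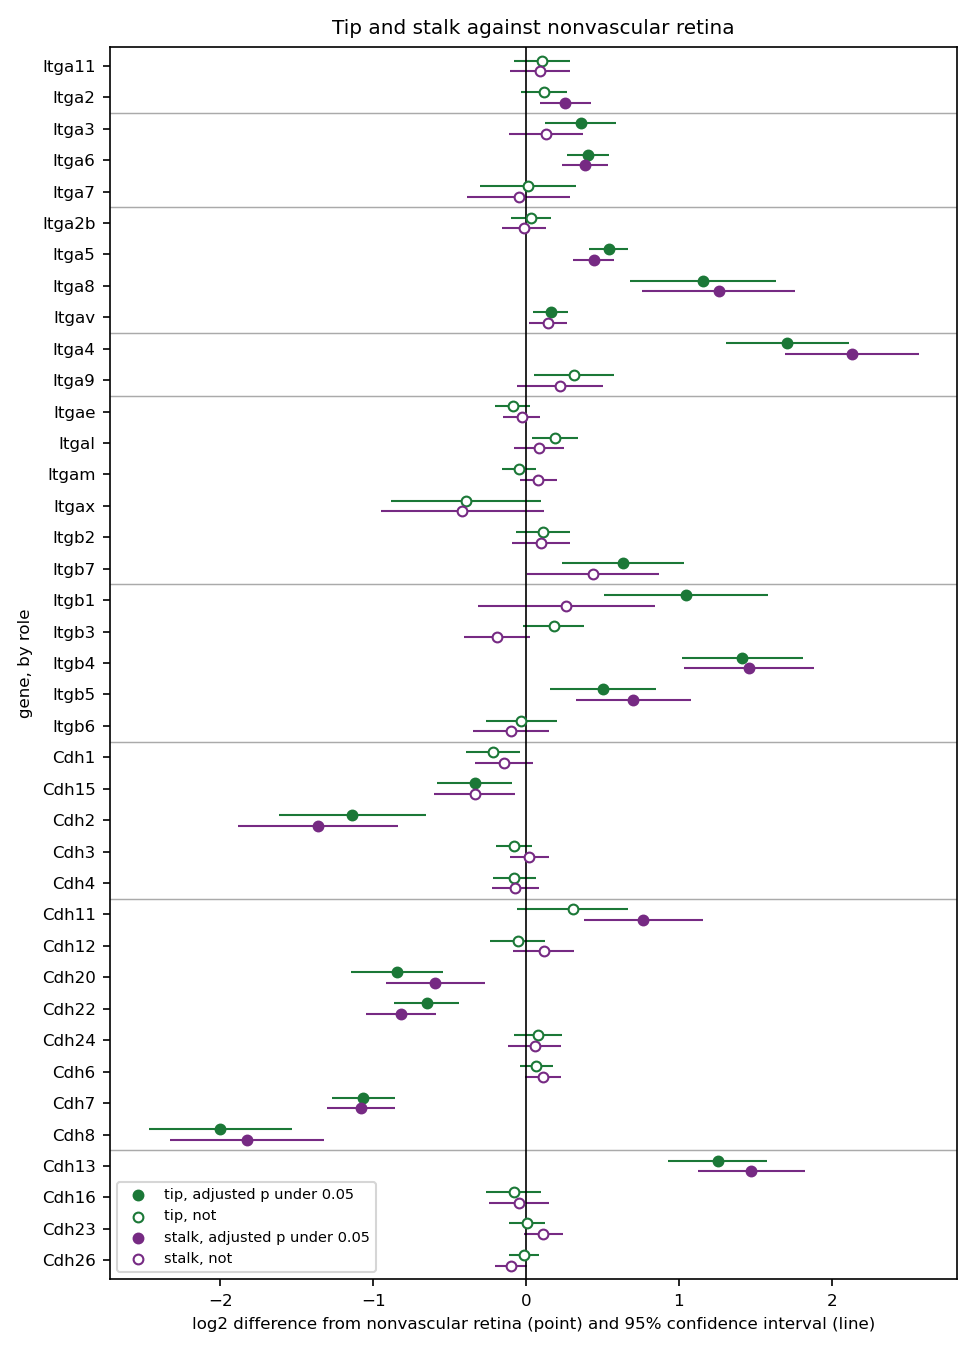
Points give the log2 difference of tips (green) and of stalks (purple) from nonvascular retina for 39 genes, with 95% confidence intervals as lines; filled points had an adjusted p under 0.05. Itga4 in stalks lies farthest to the right at 2.13 and Cdh8 in tips farthest to the left at -2.0, and the integrin points that are filled all lie right of 0.

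Between tips and stalks the members differed much less. Itgb3 was the 1 member called of 39, higher in tips, and no member was called lower, in limma, where 1.47% of all genes were higher and 1.31% lower. At an unadjusted p under 0.05 there were 8 members of 39, where 18% of all genes passed that threshold (5790 of 32096). The median member difference was 0.01, beside 0.00 over all genes. With median centring, 49 genes in all were higher and 204 lower, in place of 471 and 422, and from the red channel alone 207 and 477; 1 member, Itga7, was then called lower. The groups differed in array brightness, with a median red signal over background of 98.1 to 141 in stalks and 105 to 292 in tips, and with brightness as a covariate 77 genes were higher and 146 lower and no member was called.

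Itgb3 was -0.09, -0.34, -0.29, -0.32, -0.47 and -0.43 on the tip arrays and -0.79, -0.69, -0.80 and -0.49 on the stalk arrays. Every tip array lay above every stalk array, as for 2.74% of all genes, and the nearest arrays were 1 of each group at -0.47 and -0.49. Itgb3 was 1.29-fold higher in tips (log2 difference 0.37, SE 0.0843, adjusted p = 0.0368), but the red channel alone turned it to -0.14 (adjusted p = 0.714). Leaving out any 1 of nonvascular replicate 2, the first 3 stalk replicates and the first 4 tip replicates also ended the call, at adjusted p-values from 0.051 to 0.115. None of 39 members had every tip array below every stalk array, which 2.74% of all genes had.

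Itgb1 had the largest difference between tips and stalks, 0.78 (SE 0.225, 95% confidence interval 0.29 to 1.27), with an adjusted p of 0.0881. The individual tip values were -1.34, -0.93, -1.28, -1.73, -1.60 and -2.31, so that 5 of 6 tip arrays lay above the highest stalk array. Without tip replicate 6, the lowest, the difference was 0.94 and was called (adjusted p = 0.0133). The second Itgb1 probe gave -0.15 (adjusted p = 0.37). Cdh11 differed by -0.46 (SE 0.152, adjusted p = 0.132), and all 6 tip arrays lay below the stalk mean. Its other probes gave -0.29 and 0.04. Itga4 differed by -0.42 (SE 0.17, adjusted p = 0.214), and its other probes by -0.14 and 0.01. Pericyte and smooth muscle markers were lower in tips in the same comparison, with mean log2 ratios of 0.57 to 0.82 in tips and 1.14 to 1.35 in stalks, and their part in the Cdh11 and Itga4 values was not tested. Cdh20 differed by -0.25 (adjusted p = 0.323), and by -0.35 without tip replicate 1, where it was called lower (adjusted p = 0.0387). The second, dimmer Cdh20 probe gave 0.06.

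Of the 11 members higher in tips than in nonvascular retina, 3 had tip minus stalk intervals that excluded 0 without passing the adjusted threshold: Itgb1 (given above), Itga4 (-0.79 to -0.05) and Itga3 (0.01 to 0.44). For others the 95% confidence interval of the log2 difference was -0.11 to 0.15 for Itga6, -0.02 to 0.21 for Itga5 and -0.09 to 0.12 for Itgav. It was wider for Itga8 (-0.54 to 0.33), Itgb4 (-0.41 to 0.32), Itgb5 (-0.52 to 0.12) and Itgb7 (-0.17 to 0.56). For cadherins lower in both it was -0.17 to 0.20 for Cdh7, -0.02 to 0.36 for Cdh22, -0.60 to 0.25 for Cdh8, -0.22 to 0.67 for Cdh2 and -0.52 to 0.02 for Cdh20. Cdh13 had -0.52 to 0.07. Apart from those of Itgb1, Itga4 and Itga3, these intervals include 0, which does not show that the levels were alike.

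**Figure D4:**
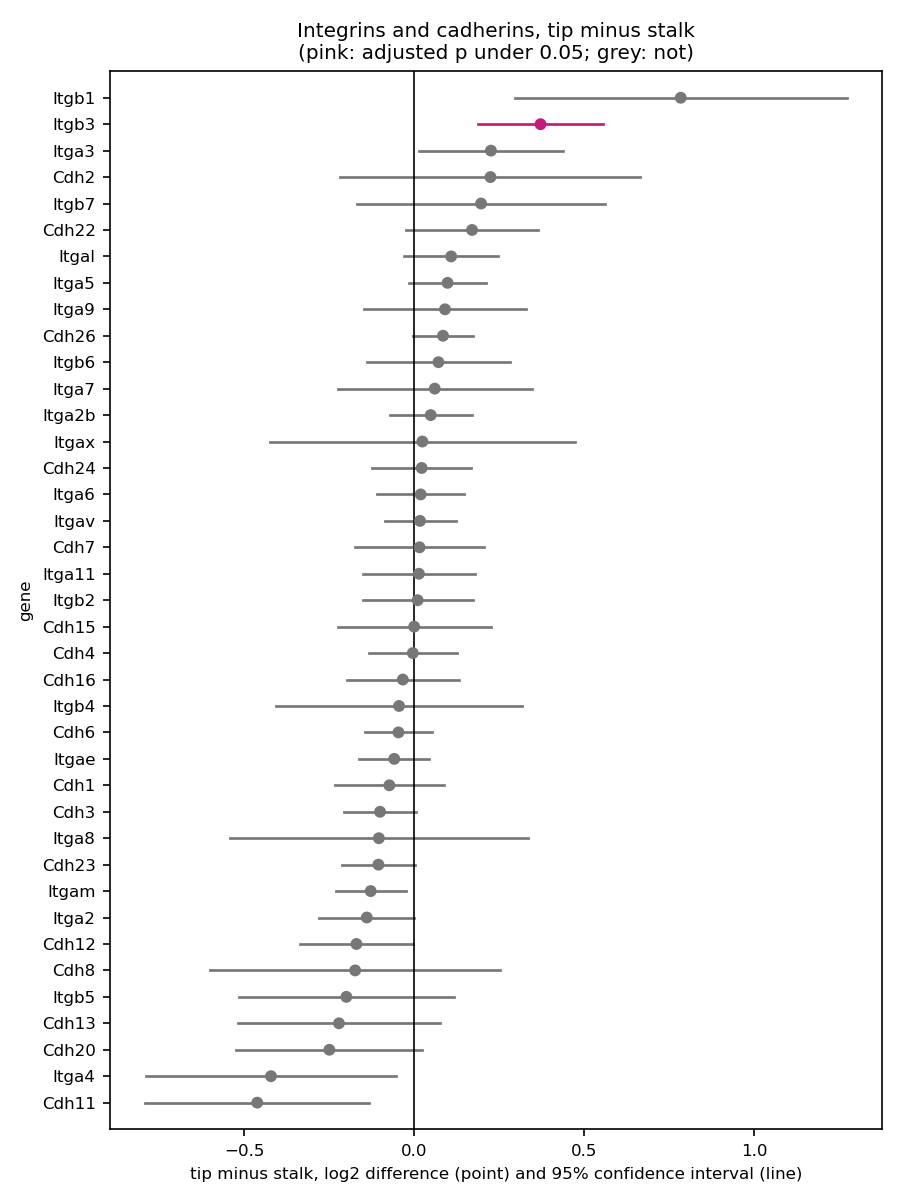
Points give the log2 difference of tips minus stalks for 39 genes in order of size, with 95% confidence intervals as lines; pink marks an adjusted p under 0.05. Itgb3 is the pink gene at 0.37, a value that was -0.14 from the red channel alone, and Itgb1 lies farthest to the right at 0.78 with an interval of 0.29 to 1.27.

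Of 37 tested genes for integrin ligands, 23 were higher and 4 lower in tips than in nonvascular retina, where 11.1% and 16.8% of all genes were, and 24 were higher and 3 lower in stalks, beside 11.2% and 18.6%, with median log2 differences of 0.78 and 0.99. Vcam1, the cell-surface ligand of alpha 4 integrins, was 1.12 higher in tips (adjusted p = 0.000955) and 1.48 higher in stalks (adjusted p = 0.000188). Fn1, fibronectin, was 0.34 higher in tips (adjusted p = 0.0317) and differed by 0.25 in stalks (adjusted p = 0.126). Between tips and stalks, 3 ligands were higher and 2 lower in tips, beside 1.47% and 1.31% of all genes. The laminin chain Lamb1 (0.88, adjusted p = 0.0427), the basement membrane protein Nid2 (0.65, adjusted p = 0.0148) and osteopontin, Spp1 (0.76, adjusted p = 0.0267), were higher. Vitronectin, Vtn (-1.17, adjusted p = 0.00351), and the elastic fibre protein Fbln5 (-1.34, adjusted p = 0.00462) were lower. Single genes of the lists were not rerun under the processing alternatives. Over all genes, 893 calls between tips and stalks became 253 with median centring and 223 with brightness as a covariate. Pericyte and smooth muscle markers were lower in tips too (7 of 12), and their part in the Vtn and Fbln5 values was not tested. Against nonvascular retina Spp1 was lower in both, with differences of -0.82 in tips and -1.58 in stalks.

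Integrin adaptors are cytoplasmic proteins that join integrins to actin and kinases, and the list also held other integrin-associated proteins such as Cd151 and Cd47. Of its 31 genes tested, 12 were higher and 2 lower in tips than in nonvascular retina. In stalks 14 were higher and 2 lower. Over all genes, 11.1% were higher and 16.8% lower in tips, and 11.2% and 18.6% in stalks. Tln1, talin, which activates integrins, was 1.11 higher in tips (adjusted p = 2.83e-06) and 1.1 higher in stalks (adjusted p = 5.84e-06). Between tips and stalks, 1.47% of all genes were higher in tips and 1.31% lower. There Ilk, integrin-linked kinase, was 0.24 higher in tips (adjusted p = 0.023 in limma) and 4 adaptors were lower. They were Lims2 (-1.96, adjusted p = 1.52e-05), which binds Ilk, Ptk2 (-0.53, adjusted p = 0.00307), the focal adhesion kinase, Kank1 (-0.67, adjusted p = 0.0244), which binds talin, and Dab2 (-0.63, adjusted p = 0.0363), an endocytic adaptor. Lims2 stood 1.89 above nonvascular retina in stalks and -0.07 from it in tips. The part of pericytes and smooth muscle in the Lims2 values was not tested, and the adaptor calls were not rerun under the processing alternatives either.

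Of 18 catenins and other cadherin partners, 3 were higher and 3 lower in tips than in nonvascular retina, and 3 higher and 4 lower in stalks. These counts lie near the shares over all genes (11.1% higher and 16.8% lower in tips, 11.2% and 18.6% in stalks), so single genes are given. Ctnna1, the alpha catenin of epithelia and endothelium, was 4.96-fold higher in tips (log2 difference 2.31, adjusted p = 6.06e-07) and 4.56-fold higher in stalks (2.19, adjusted p = 1.77e-06). The neural catenins moved the other way, Ctnna2 by -1.23 and -1.42 and Ctnnd2 by -1.37 and -1.81, all of them called. The shared Ctnnb1, beta-catenin, differed by 0.26 in tips and 0.11 in stalks (adjusted p = 0.461 and 0.808), with 1 stalk array missing. No partner was called between tips and stalks, where the smallest p was that of Ctnnd2 (0.44, adjusted p = 0.0864).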

How the data were processed

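Agilent arrays with 2 colours measured RNA of 6 tip, 4 stalk and 3 nonvascular retina samples in red against Universal Mouse Reference RNA in green, with no dye swap. The authors deposited spot intensity values, extracted with Agilent Feature Extraction 8.5.1.1 per the file headers. The deposited log10 ratios in those files and the deposited table of red over green ratios served as alternatives. From the intensities, normexp background correction (offset 50) and loess within each array were run with limma 3.58.1 in R 4.3.3, leaving out control and outlier spots. Repeated spots were averaged, and a gene was represented by its brightest probe. Probes well above background in red on at least 3 of 13 arrays were tested in 1 fit of the 3 group means, with Benjamini-Hochberg adjustment over 32096 genes and a threshold of 0.05. Symbols came from RefSeq accessions or descriptions, and probes without a symbol were kept under the array's own gene name. The fit was tested on simulated data.

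Named with values per array were members called in any comparison and a set of fixed members. Of the ligand and adaptor lists, the genes with the 3 smallest p-values between tips and stalks were named. Of the partner list, that comparison is given for the gene with the smallest p-value. Other genes of the lists were chosen after their values were seen. Members and lists were chosen with earlier results of these data known. Each array was on its own slide; stalk arrays were scanned first, then tip, then nonvascular arrays, so group and order of scanning cannot be told apart. Same-numbered samples correlated at -0.14 to 0.08 in their deviations, so the numbers were not taken as pairs.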

Additional observations from a re-analysis of the deposited data

Results flagged for a closer look

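In 4 of 78 groups of arrays, 1 array stood apart from the others of its group by Dixon's test at the 95% level, and chance alone would mark about 1 group in 20. Cdh15 had a log2 ratio of 0.0894 in stalk replicate 2, where the other stalk arrays ran from -0.29 to -0.24. Cdh2 had 1.74 in stalk replicate 4, against 1.02 to 1.13 in the others, and was still below all nonvascular arrays. Itgb7 had -2.44 in stalk replicate 3, against -3.0 to -2.91. Itga11 had -0.384 in tip replicate 1, against -0.12 to 0.04 in the other tip arrays.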

How the results depend on the processing

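The comparison of tips with stalks was the one whose counts moved. The number of members called fell from 1 to 0 with median centring, the deposited ratios, the log ratios of Feature Extraction, array brightness as a covariate and the replicate block, and was 0 to 2 with 1 array left out. The red channel alone called 1 member, Itga7, and turned Itgb3 to -0.138. Over all genes, 893 calls became 253 with median centring and 223 with brightness as a covariate, and 446 to 1603 with 1 array left out. The cause was not tested. In tips against nonvascular retina, 17 members were called (13 to 18 with 1 array left out), and in stalks 14 (13 to 15), within 1.5 times under all 24 alternatives. Of the calls, 10 of 17 and 9 of 14 were kept in every alternative. The replicate block gave 14 and 14 members there, and 660, 7148 and 8481 genes in all over the 3 comparisons. Over 26 named members and 1863 values under alternatives, 69 lost and 24 gained a call with their direction kept. In 63 values the sign turned, of which 62 were not called under either setting and 1 was the Itgb3 value above. Sizes moved more than calls: 13 of 17 called differences in tips and 11 of 14 in stalks changed by over 1.5 times under at least 1 alternative, among them Cdh8 in tips (-2.0 to -3.36 with the log ratios of Feature Extraction) and Itga4 in stalks (2.13 to 1.08 with the mean of its probes). A block on slide or scan day was not run, since each slide held 1 array and 1 array alone was scanned on another day, so that the block equals leaving it out. Dim probes limit what could be seen: Cdh17 was not well above background on any array and Cdh1 was on 6.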

Other observations

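Some probes that fell outside the rule carry a description of the same families but no symbol, 25 in all, and were not counted as members. A probe described as integrin alpha 6 was higher in tips (log2 difference 0.74, adjusted p = 0.00362) and in stalks (1.05, adjusted p = 0.00043) than in nonvascular retina, as the Itga6 probe was, and another so described was not called (0.23 and 0.25). A probe described as integrin alpha V differed by 0.62 in tips (adjusted p = 0.0205) and 0.50 in stalks (adjusted p = 0.0743). A probe described as integrin alpha 4 was 0.48 higher in both (adjusted p = 0.00178 and 0.00292), and 3 others of that description were not called. A probe described as integrin alpha M was lower in both, with differences of -0.49 (adjusted p = 0.000268) and -0.58 (adjusted p = 0.00012), whereas the Itgam probe differed by -0.05 and 0.08. A probe described as cadherin 10 differed by -0.43 and -0.52, and 1 described as cadherin 8 by -0.41 and -0.42, all of them called lower. Other probes of those descriptions that were tested were not called, 2 for cadherin 10 and 1 for cadherin 8 (-0.01 and 0.09). Probes described as cadherin 13 (-0.05 and 0.05), cadherin 7 (-0.19 and -0.16) and cadherin 2 (2 probes, 0.03 and -0.01 in tips) were not called either, unlike the Cdh13, Cdh7 and Cdh2 probes of the report. They were all dimmer than those probes. The cadherin 2 probes had mean log2 intensities of 6.04 and 6.25, beside 9.52 for the Cdh2 probe, and the first was well above background on only 4 arrays. Of 3 probes described as integrin beta 8, 1 was called in tips (-0.15, adjusted p = 0.0456). None of the 25 was called between tips and stalks; the smallest adjusted p was 0.0836, for the probe described as integrin alpha 1 (0.41). All adjusted p-values are from limma.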
